A study of Homo sapiens with 20 samples.

Results

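The kinesin superfamily was examined in RNA-seq libraries of U2-OS cells, a human osteosarcoma line, before and after ionizing radiation (IR) and after knockdown of NFKBIA, the gene of the NF-κB inhibitor IκBα. Members were all genes whose symbol is KIF or KIFC followed by a number and at most 1 of the letters A to C, which gave 42 of 20314 genes in the count table. Of these, 14 were grouped as mitotic kinesins, 15 as transport kinesins and 13 as other kinesins, from the known roles of their proteins. The 4 groups held 5 libraries each. All cells were grown in DMEM with 10% FCS and antibiotics. The groups were untreated cells, cells 90 minutes after a dose of 20 Gy (the first phase), cells 7 days after the same dose (the second phase), and cells that were not irradiated and carried an shRNA against NFKBIA. Irradiation was timed so that all cells were harvested together. According to the study, the shRNA was doxycycline-inducible and carried by a lentiviral vector, cells were selected as clones with puromycin, and doxycycline was given before harvest; the labels themselves name only the shRNA. No library was labelled as a scrambled shRNA control, so the knockdown comparison held the vector, the selection, the doxycycline and the loss of NFKBIA together.

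Kinesins are motor proteins that bind microtubules and convert ATP hydrolysis into movement or into removal of tubulin from microtubule ends. Mitotic kinesins separate the spindle poles, align and carry chromosomes, and build the midzone on which cytokinesis depends, and their mRNAs are known to peak in G2 and M phase. Transport kinesins carry vesicles, organelles, proteins and RNA along microtubules in cells that do not divide as well as in cells that do. Among the genes grouped here as other are kinesins of cilia and of Hedgehog signalling, together with little studied members.

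The libraries held between 22535659 and 40390961 counts, with a median of 33800193. NFKBIA (ENSG00000100906) stood at 31.3 ± 7.25 CPM (reads of a gene relative to the normalized size of its library; mean ± SD, n = 5 in each group here and below) in untreated cells and at 12.2 ± 0.667 in knockdown cells, a log2 fold change of -1.36 ± 0.11 (SE). At 90 minutes it reached 82.0 ± 5.27 CPM, and at 7 days 30.8 ± 1.59. CDKN1A, the p53 target that encodes the cell cycle inhibitor p21, rose from 226 ± 17.2 to 689.9 ± 24.3 CPM at 90 minutes and to 816 ± 13.3 at 7 days. MKI67, a marker of proliferating cells, stood at 896 ± 535 CPM in untreated cells and at 267 ± 9.05 at 7 days. The labelled osteosarcoma origin was checked on 8 osteoblast lineage genes: RUNX2 stood at 116 ± 51.5, COL1A1 at 1974 ± 248 and SPARC at 2137 ± 82.8 CPM in untreated cells, whereas COL1A2, the partner chain of COL1A1, stood at 0.411 ± 0.0902, BGLAP at 1.15 ± 0.357, and SP7 and IBSP did not exceed a mean of 0.0284 CPM in any group. Of 10 markers of epithelial, blood and endothelial cells, none exceeded a mean of 3.40 CPM in untreated cells. Untreated library 5, which had the fewest counts, and untreated library 4 stood apart from the other 3: for 33 and 29 of the 39 tested kinesins, respectively, their value lay outside the range of the remaining untreated libraries. Sequencing lanes, as named in the labels, followed the groups closely, with untreated libraries 1 to 4 alone in lane 2 and knockdown libraries 2 to 5 alone in lane 6. With lane as a factor, as in alternative fits below, untreated cells are therefore compared with the others through untreated library 5 alone. Knockdown cells are then compared through knockdown library 1 alone.

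In untreated cells the kinesin with the most reads per length was mitotic. On the scale of CPM per kilobase of gene length (RPKM), KIF2C, which depolymerizes microtubules at kinetochores, had the highest level at 68.2 ± 10.95, followed by KIFC1, the minus-end motor that bundles spindle microtubules, at 55.1 ± 2.50. KIF5B, the ubiquitous heavy chain of conventional kinesin, was the highest transport kinesin at 51.2 ± 8.26, and KIF20A, which acts at the central spindle in cytokinesis, had 46.9 ± 3.04. Neighbours in this order overlapped in their spread between libraries. At 7 days the order was headed by KIF5B at 43.0 ± 1.73 RPKM, with KIF2C at 33.0 ± 1.30, KIF3B, a subunit of the heterotrimeric kinesin-2 motor, at 30.0 ± 0.969, and KIFC2 at 27.1 ± 0.915. KIFC1 was then eighth with 21.0 ± 0.536 RPKM, and KIF20A moved from rank 4 to rank 12 with 15.3 ± 0.564. KIF2B, a paralog of KIF2C, had 0 counts in all 20 libraries. It and the low genes KIF12 and KIF25 did not pass the expression filter, so 39 of the 42 members were tested: 13 mitotic, 15 transport and 11 other kinesins.

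The promoters of the mitotic kinesins shared sequence elements that the choice of members did not use. The cell cycle genes homology region (CHR), with the letters TTTGAA or TTCGAA, and the CCAAT box, which binds NF-Y, are known elements of genes expressed in G2 and M phase. Both were searched on both strands of RefSeq promoters (GRCh38.p14) that span 250 bases before to 50 bases after the annotated start, counted as position 0; TTCGAA reads the same on both strands, and no CHR match in a kinesin promoter overlapped a CCAAT box. A promoter was given for 34 of the 42 members. A CHR match was present in 11 of 14 mitotic kinesin promoters (78.6%), 1 of 11 transport kinesin promoters and 1 of 9 promoters of other kinesins, against 16.4% of all 35116 promoters. A CCAAT box was present in 11 of 14 mitotic, 3 of 11 transport and 3 of 9 other kinesin promoters, against 34.6% of all promoters. Both together were found in 10 of 14 mitotic promoters and in 6.38% of all. The E2F-type sequence TTCCCGC was in 0 of 14 mitotic, 2 of 11 transport and 1 of 9 other kinesin promoters, against 6.55% of all. In mitotic kinesins the 12 CHR matches lay between positions -55 and 30, with a median of -4.5, whereas the 16 CCAAT boxes lay upstream, between -202 and -21. The following windows of 40 bases are shown on the gene's strand because they hold the element common to most mitotic kinesins, with the CHR or its reverse complement TTCAAA in capitals. The first 3 are spindle pole motors, which push or hold the poles apart, or in the case of KIFC1 pull them together.
KIF11 chr10:92593085-92593124 (+): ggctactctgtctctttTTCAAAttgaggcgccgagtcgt
KIF15 chr3:44761742-44761781 (+): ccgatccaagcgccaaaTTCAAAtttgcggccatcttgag
KIFC1 chr6:33391810-33391849 (+): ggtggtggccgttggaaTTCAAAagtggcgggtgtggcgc
KIF22 chr16:29790707-29790746 (+): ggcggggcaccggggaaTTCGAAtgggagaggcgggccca
KIF18B chr17:44947749-44947788 (-): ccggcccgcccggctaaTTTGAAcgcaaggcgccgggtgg
KIF18A chr11:28108144-28108183 (-): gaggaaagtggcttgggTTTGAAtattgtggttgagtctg
KIF23 chr15:69414277-69414316 (+): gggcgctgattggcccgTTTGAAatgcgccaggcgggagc
KIF14 chr1:200620728-200620767 (-): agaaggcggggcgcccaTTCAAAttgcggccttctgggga
KIF4A chrX:70290053-70290092 (+): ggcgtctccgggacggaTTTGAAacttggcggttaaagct
KIF4B chr5:155013741-155013780 (+): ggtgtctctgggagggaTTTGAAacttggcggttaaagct

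KIF4A and its copy KIF4B carried the CHR in the same surroundings, within an identical run of 50 bases. Outside the mitotic group, KIF24 and KIF5B had a CHR match. KIF24, which acts at centrioles to restrain cilium formation, had it at position 1, and KIF5B had it far upstream, at -140.
KIF24 chr9:34329245-34329284 (-): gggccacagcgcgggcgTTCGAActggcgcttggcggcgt
KIF5B chr10:32056543-32056582 (-): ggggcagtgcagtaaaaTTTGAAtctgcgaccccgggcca

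The expressed mitotic kinesins without a CHR match were KIF20A and KIF2C. In the 100 bases before their start, KIF20A held CCAAT boxes at positions -94 and -67, shown in capitals as their reverse complement ATTGG, and KIF2C held neither element.
KIF20A chr5:138179012-138179111 (+): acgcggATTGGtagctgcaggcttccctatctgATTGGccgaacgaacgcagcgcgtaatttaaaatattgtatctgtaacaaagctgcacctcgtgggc
KIF2C chr1:44739737-44739836 (+): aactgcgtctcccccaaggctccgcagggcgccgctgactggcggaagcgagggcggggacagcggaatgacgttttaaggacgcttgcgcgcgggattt
These matches describe letters in a window and say nothing of which factors bind there.

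**Figure D1:**
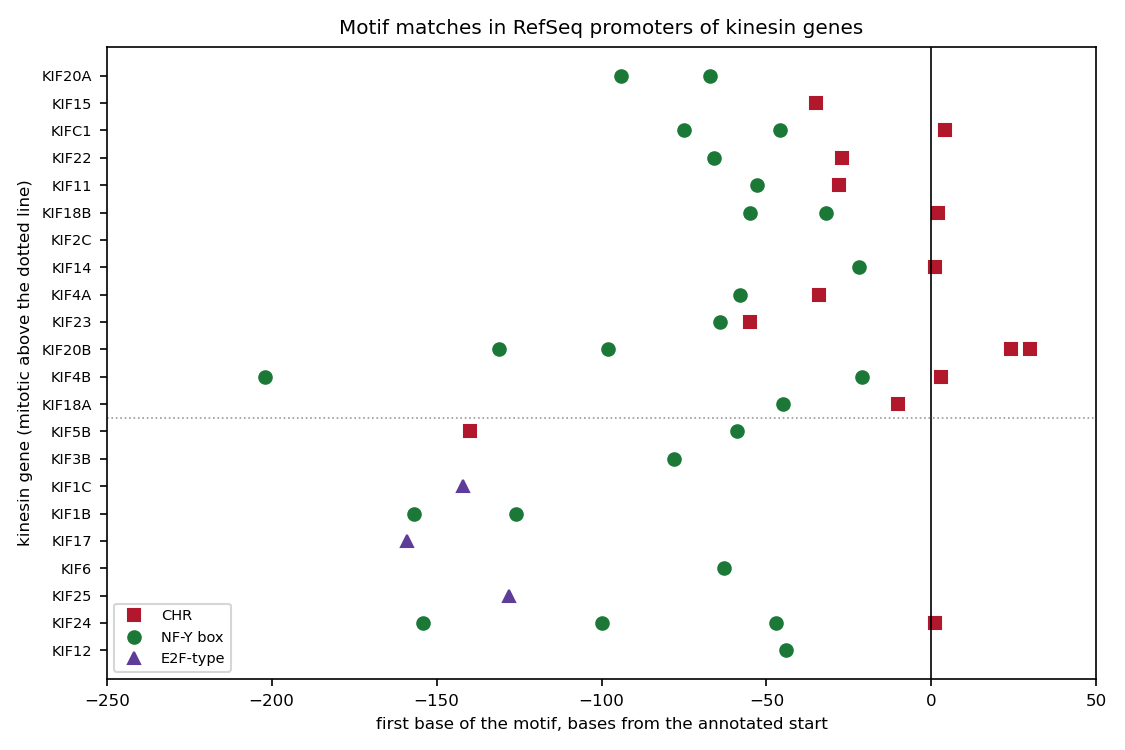
First base of each CHR (squares), CCAAT (NF-Y box, circles) and TTCCCGC (E2F-type, triangles) match, in bases from the annotated start, for the 13 expressed mitotic kinesins (above the dotted line) and for the other kinesins with a match (below it). CHR matches of mitotic kinesins lie near the start, between -55 and 30, and below the line KIF5B and KIF24 have one.

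At 7 days after IR, every expressed kinesin that was grouped as mitotic was lower than in untreated cells. The comparison addressed how the second phase after irradiation differs from untreated cells. All 13 tested mitotic kinesins passed the test (edgeR quasi-likelihood test, Benjamini-Hochberg adjusted p below 0.05 over 14992 genes and a log2 fold change beyond 0.5 in size), and 7 of them fell to a level more than 2-fold below untreated. Over all genes tested, 14.4% were called lower and 16.7% higher. The median log2 fold change was -1.05 in mitotic kinesins, 0.0029 in transport kinesins and -0.088 in other kinesins, against 0.012 over all genes. Each mitotic kinesin was also separated, with its highest library at 7 days under its lowest untreated library, as were 20.4% of all genes. In bulk samples, fewer cells in G2 and M phase and less mRNA per cell cannot be told apart.

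KIF20A (ENSG00000112984), the cytokinesis motor whose promoter is printed above, had the largest fall. Untreated libraries 1 to 5 had 192, 171, 189, 176 and 200.5 CPM, and the libraries at 7 days had 60.8, 63.7, 61.1, 59.5 and 57.7. The groups were far apart, and KIF20A was 3.07-fold lower, with a log2 fold change of -1.62 ± 0.050 (SE, adjusted p = 1.94e-16). The other cytokinesis kinesins fell less. KIF23 (ENSG00000137807), the MKLP1 subunit of centralspindlin, had 289, 268, 283, 260.4 and 295 CPM in untreated libraries and 142, 144, 137, 144 and 139 at 7 days, a fall of 0.98 ± 0.041 on the log2 scale (adjusted p = 1.98e-14). KIF14 (ENSG00000118193), which recruits citron kinase to the midbody, had 87.0, 90.5, 95.2, 61.6 and 101 CPM in untreated libraries, of which library 4 was the lowest by a wide gap, and 45.8, 43.3, 43.6, 41.5 and 44.3 at 7 days. Even so the groups did not overlap, and KIF14 fell by 0.99 ± 0.093 (adjusted p = 6.93e-09). KIF20B, the MPHOSPH1 protein of late cytokinesis, had 192 CPM in untreated library 5 against 94.5 to 122 in the other 4, and stood between 74.9 and 79.5 at 7 days (log2 fold change -0.72 ± 0.12, adjusted p = 2.63e-05, and -1.32 with lane as a factor).

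The motors that set the distance between the spindle poles fell together with them. KIF11 (ENSG00000138160), also known as Eg5, slides antiparallel microtubules apart and is the target of monastrol. It had 205, 196, 196, 188 and 209 CPM in untreated libraries and 80.0, 82.5, 77.9, 78.0 and 78.6 at 7 days. KIF15 (ENSG00000163808), which can keep poles apart when KIF11 is inhibited, had 55.3, 58.6, 54.97, 46.0 and 63.1 CPM in untreated libraries and 20.2, 18.9, 19.5, 20.9 and 20.4 at 7 days. Both spreads at 7 days were narrow beside the distance between the groups, with log2 fold changes of -1.32 ± 0.046 for KIF11 (adjusted p = 1.19e-15) and -1.48 ± 0.066 for KIF15 (adjusted p = 6.35e-14). KIFC1 (ENSG00000237649), which pulls the opposite way and clusters extra centrosomes in tumour cells, had 187, 174, 179, 183 and 196 CPM in untreated libraries and 69.7, 73.3, 69, 68.99 and 69.9 at 7 days. It was 2.63-fold lower, a log2 fold change of -1.39 ± 0.044 (adjusted p = 2.57e-16). Of the exon bases of KIFC1, 12.7% are shared with the pseudogene RPL12P1 on the opposite strand.

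Kinesins that work on chromosomes and on microtubule ends were lower as well. KIF22 (ENSG00000079616), the chromokinesin Kid, shares 13.0% of its exon bases with the antisense gene AC009133.4. It had 125, 112, 115, 136 and 120.4 CPM in untreated libraries and 44.4, 48.5, 45.6, 47.2 and 46.7 at 7 days. KIF4A (ENSG00000090889), a chromokinesin that also stops midzone microtubules from growing, had 159, 142, 154, 158 and 140.1 CPM in untreated libraries and 76.0, 78.9, 76.6, 74.6 and 75.0 at 7 days. For both, no library of one group entered the range of the other, and the log2 fold changes were -1.39 ± 0.051 for KIF22 (adjusted p = 2.93e-15) and -0.98 ± 0.043 for KIF4A (adjusted p = 4.51e-14). KIF4B, an intronless copy of KIF4A, stood far lower, at 4.95 to 7.23 CPM in untreated libraries and 3.43 to 4.19 at 7 days (log2 fold change -0.71 ± 0.10, adjusted p = 2.94e-06). Only 2.10% of its transcript's 100-base stretches occur unchanged in KIF4A transcripts, but near matches were not counted, so its values remain uncertain. With lane as a factor its log2 fold change was -0.34, short of the fold threshold.

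KIF2C (ENSG00000142945), also called MCAK, had 274, 244, 258, 288 and 184 CPM in untreated libraries and 117, 129, 118, 121 and 120.3 at 7 days. Untreated library 5 was the lowest of its group and still above all libraries at 7 days, and the log2 fold change was -1.05 ± 0.080 (adjusted p = 3.23e-10), or -0.609 with lane as a factor. KIF18B (ENSG00000186185), which limits the length of astral microtubules together with KIF2C, had 102, 102, 109, 94.1 and 136 CPM in untreated libraries and 42.6, 45.5, 43.1, 48.2 and 44.6 at 7 days, a log2 fold change of -1.28 ± 0.073 (adjusted p = 3.04e-12). KIF18A damps chromosome oscillations at the metaphase plate and had the smallest fall among the mitotic kinesins in the fit over all libraries without covariates. It went from 66.5 to 75.0 CPM in untreated libraries to 43.2 to 46.4 at 7 days (log2 fold change -0.67 ± 0.052, adjusted p = 4.53e-10). With a library left out the change of KIF20B was as small as -0.552, and with lane as a factor that of KIF4B was -0.34. The mitotic kinesins thus differed among themselves in the level that remained, from 32.6% of the untreated mean for KIF20A to 62.9% for KIF18A. Summed over the mitotic kinesins, 996 CPM were lost, of which KIF23, KIF2C, KIF20A, KIF11 and KIFC1 made up 62.7%.

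**Figure D2:**
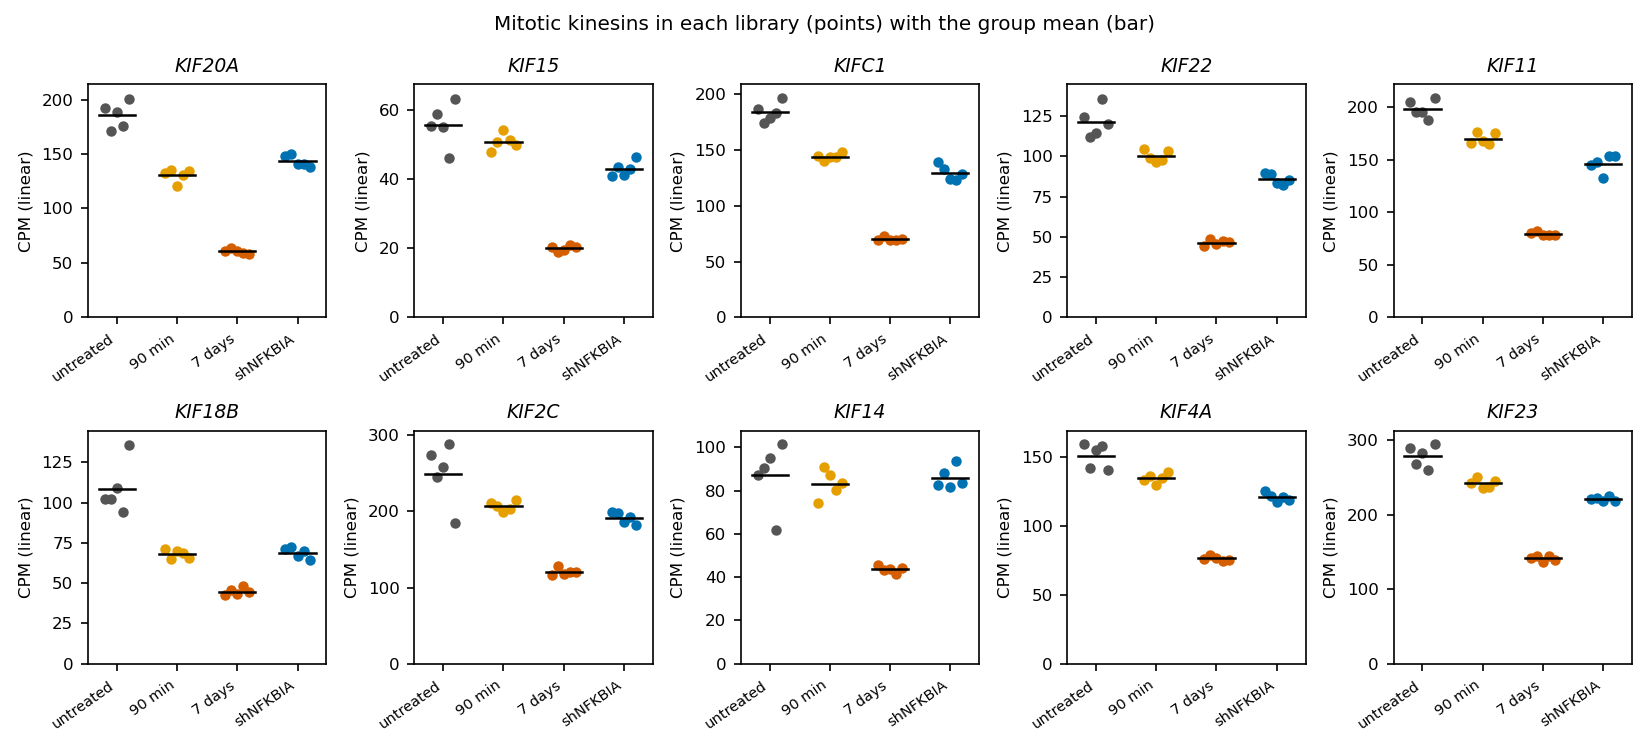
CPM in every library (points, by group) for the 10 mitotic kinesins with the largest falls at 7 days, with the group mean as a line; n = 5 libraries per group. For each gene the 7-day points lie under all untreated points, as for KIF20A at 57.7 to 63.7 against 171 to 200.5 CPM.

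Transport kinesins had no common direction. Of 15 tested, 0 were called lower and 1, KIF17, was called higher at 7 days, against 14.4% and 16.7% of all genes. DESeq2 also called 0 lower, and at an unadjusted p below 0.05 there were 4 lower and 5 higher, where 32.8% and 34.5% of all genes were. The count called lower was not 0 without untreated library 4, where KIF5A (-0.559) was called lower. The fit with lane as a factor rests on untreated library 5 alone for untreated cells. In it KIF5A (-1.12), KIF3C (-0.643), KIF13A (-0.592) and KIF5B (-0.571) were lower beyond the fold threshold. KIFC3 (1.11) and KIFC2 (0.799) were higher beside KIF17. KIF5B had 248 to 381 CPM in untreated libraries and 244 to 268 at 7 days, overlapping ranges with a log2 fold change of -0.25. KIF3B had 133 to 177 CPM in untreated libraries and 178 to 193 at 7 days, without overlap but with a log2 fold change of 0.27. KIFC2, a minus-end directed member, came closest to the threshold at 0.46. It had 72.2 to 99.3 CPM in untreated libraries and 115 to 125 at 7 days, and 17.8% of its exon bases are shared with FOXH1 on the opposite strand. In the fit over all libraries without covariates, 13 of the 15 transport kinesins were called in none of the 5 comparisons; with library size alone as the scaling, KIFC2 (0.501 at 7 days) and, in knockdown cells, KIF13B (0.511) passed.

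KIF17 (ENSG00000117245), the homodimeric kinesin-2 motor of cilia and dendrites, rose at 7 days. Its untreated libraries had 5.79, 5.23, 5.93, 6.06 and 6.90 CPM and its libraries at 7 days 10.97, 11.2, 9.46, 11.9 and 12.3. All values at 7 days were above all untreated values, as they were for 24.4% of all genes, with a log2 fold change of 0.91 ± 0.098 (adjusted p = 6.87e-08), and the smallest count behind any of them was 145. Of the 11 other kinesins tested, 3 were called higher, against 16.7% of all genes: KIF6 (0.77 ± 0.13, adjusted p = 2.01e-05), KIF9 (0.50 ± 0.081, adjusted p = 1.68e-05) and KIF27 (0.51 ± 0.17, adjusted p = 0.0131). KIF9 and KIF6 are linked to motile cilia, and KIF27 is a relative of the Hedgehog regulator KIF7. KIF6 had 2.04 to 4.04 CPM in untreated libraries and 4.63 to 5.17 at 7 days, without overlap. KIF9 had 7.94 to 9.60 and 11.5 to 14.0 CPM, also without overlap and with 14.9% of its exon bases shared with KIF9-AS1 on the opposite strand, while KIF27 had 4.25 to 10.8 and 9.79 to 10.9 CPM, so that its highest untreated library, library 5, lay within the range of the irradiated ones. KIF9 and KIF27 were at the fold threshold: of 20 alternatives, KIF9 kept its call in 7 and KIF27 in 10. With lane as a factor, KIF6 (0.13) and KIF27 (0.19) no longer passed and KIF9 was 0.906, and without untreated libraries 4 and 5 KIF9 (0.44) and KIF27 (0.49) did not pass. KIF7 itself, of whose exon bases 11.8% are shared with TICRR on the opposite strand, had a log2 fold change of 0.31.

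In the fit over all libraries without covariates, KIF24 was the only member outside the mitotic group that was called lower at 7 days. KIF26A (-0.46) was called lower as well without untreated library 5 (-0.557), without 7-day library 5 (-0.521) and with no filter on counts (-0.501). Without untreated library 4, KIF5A (-0.559), KIF21B (-0.506) and KIF26B (-0.521) were called lower. Without untreated libraries 4 and 5 together, KIF26A (-0.522), KIF21B (-0.597) and KIF26B (-0.553) were. The promoters of KIF24 and KIF5B hold the CHR matches printed above, and KIF5B was not called in the fit over all libraries without covariates. A link between the CHR and these levels was not tested. KIF24 had 61.9, 71.8, 69.2, 49.6 and 81.7 CPM in untreated libraries and 42.9, 42.9, 41.9, 42.2 and 42.3 at 7 days. The groups were separate, with untreated library 4 nearest to the irradiated ones, and the log2 fold change was -0.65 ± 0.084 (adjusted p = 8.1e-07). KIF2A, the paralog of KIF2C that works at spindle poles and in neurites, was grouped with the other kinesins. It had 109.9 to 128 CPM in untreated libraries, 104 to 116 at 7 days, and a log2 fold change of -0.088. KIF2A was not called, and its promoter held neither a CHR match nor a CCAAT box. That every tested mitotic kinesin was called lower therefore depends on this grouping.

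**Figure D3:**
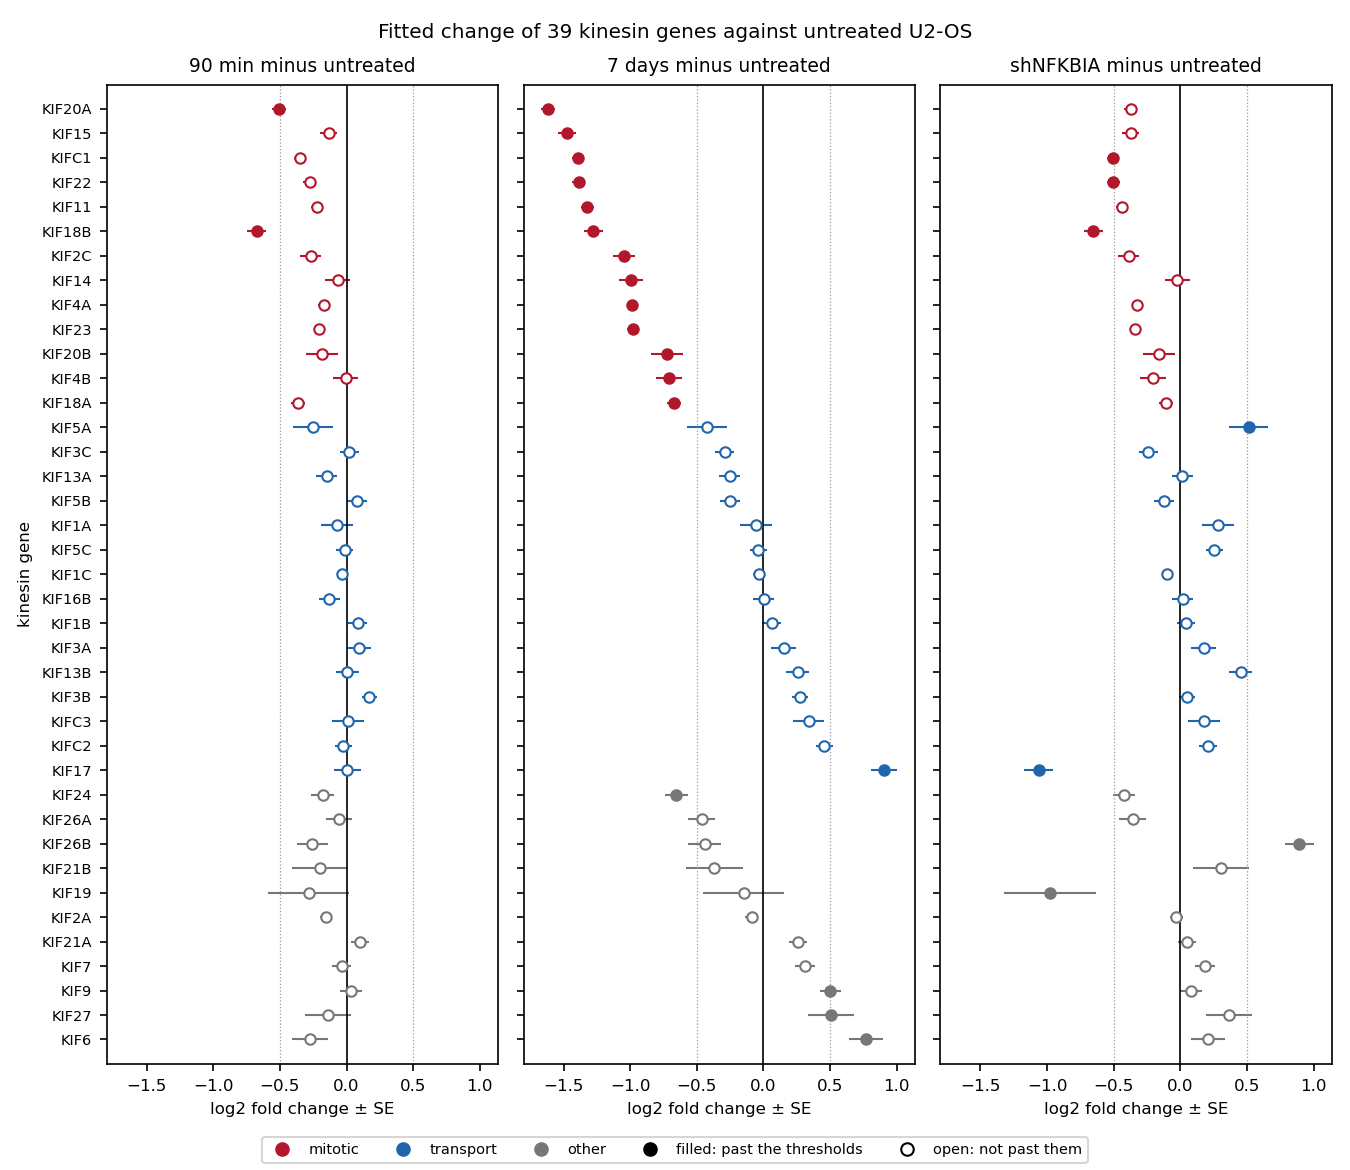
Log2 fold changes of the 39 tested kinesins at 90 minutes, at 7 days and in NFKBIA knockdown, each against untreated cells, ordered within class by the change at 7 days; bars are ± SE and filled points passed the test. At 7 days all 13 mitotic kinesins lie left of -0.5, from -1.62 for KIF20A to -0.67 for KIF18A, while transport kinesins scatter around 0 apart from KIF17 at 0.91.

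The makeup of the kinesin mRNA pool changed. Mitotic kinesins took 52.2% ± 1.51 of all kinesin reads in untreated cells, with a range of 50.7 to 54.0%. They took 47.2% ± 0.595 at 90 minutes (46.6 to 47.8%), 33.0% ± 0.669 at 7 days (32.5 to 34.1%) and 45.6% ± 0.708 in knockdown cells (44.6 to 46.4%). The 7-day libraries were the lowest, the untreated libraries the highest, and the 90-minute and knockdown libraries lay in between, where they did not overlap with each other. The summed level of mitotic kinesins was 1825 ± 66.9 CPM in untreated cells and 829 ± 14.0 at 7 days, whereas that of transport kinesins was 1357 and 1385 CPM. Untreated cells had 1.35 mitotic reads per transport read, and cells at 7 days had 0.599. With each gene's reads divided by its length, the mitotic share was 62.1% in untreated cells, 57.0% at 90 minutes, 41.8% at 7 days and 55.6% in knockdown cells. On that scale the 90-minute and knockdown libraries overlapped, at 56.48% in library 3 at 90 minutes and 56.5% in knockdown library 1.

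**Figure D4:**
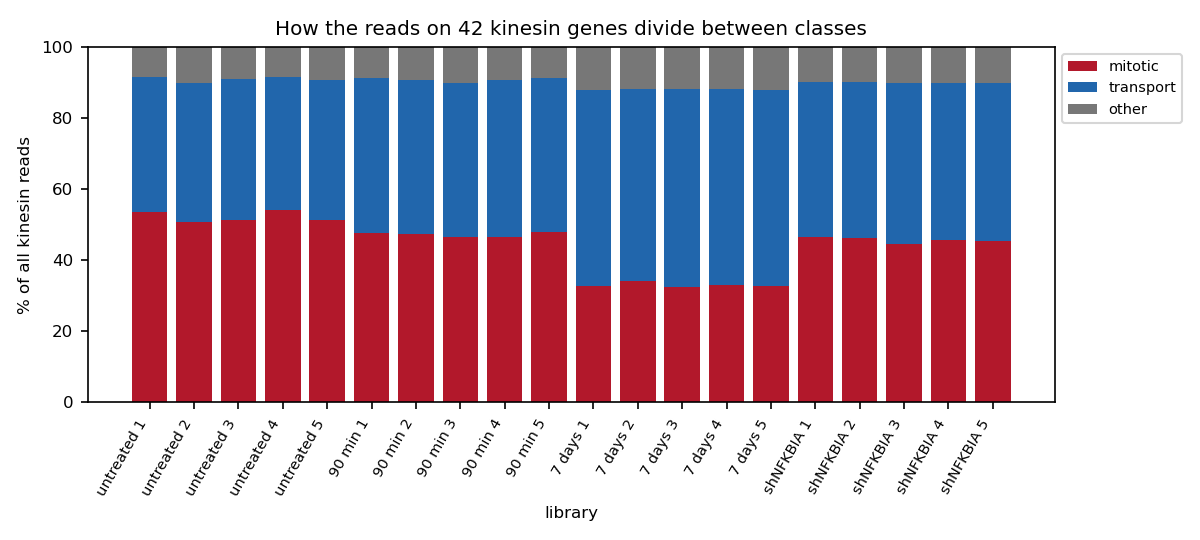
Share of all kinesin reads (percent, vertical axis) taken by mitotic, transport and other kinesins in each of the 20 libraries, drawn as bars that start at 0 and grouped by treatment. The mitotic share lies between 50.7 and 54.0% in untreated libraries and between 32.5 and 34.1% at 7 days.

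At 90 minutes after IR, 2 kinesins passed the thresholds, while smaller falls were common among the mitotic kinesins. The comparison addressed the first phase after irradiation. Of the 39 tested members, 2 were called lower and 0 higher, where 1.57% of all genes were called lower and 2.08% higher. DESeq2 likewise called 0 higher, and at an unadjusted p below 0.05 there were 1 higher and 13 lower, where 15.7% and 17.7% of all genes were. Both called members were mitotic, and fitted changes of all 13 mitotic kinesins were below 0, with a median of -0.22 against 0.0047 in transport kinesins and -0.026 over all genes. Lane 3 held 3 libraries at 90 minutes and untreated library 5 alone. Within it the median was -0.29 in mitotic kinesins (11 of 13 below 0) and -0.22 in transport kinesins (12 of 15 below 0). For 8 of 13 mitotic kinesins the libraries at 90 minutes lay under all untreated libraries, as they did for 4.85% of all genes, and 0 kinesins lay above all untreated libraries, where 7.42% of all genes did. Without the fold threshold, 9 of the 13 were lower at an adjusted p below 0.05, as were 10.2% of all genes.

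KIF18B was the most changed at 90 minutes. Against untreated values of 94.1 to 136 CPM, its libraries at 90 minutes had 71.2, 65.0, 69.7, 68.9 and 65.5, a log2 fold change of -0.67 ± 0.072 (adjusted p = 7.71e-07). KIF20A had 132, 135, 121, 131 and 134 CPM, all under the untreated minimum of 171, and a log2 fold change of -0.51 ± 0.049 (adjusted p = 1.82e-07). It was just past the fold threshold and kept the call in 14 of 20 alternatives: it was -0.481 with library size alone, -0.486 with only the groups compared, and -0.474 to -0.500 without library 3 at 90 minutes or untreated library 1, 3 or 5. Neither gene's groups overlapped, and a two-sided exact permutation test gave p = 0.00794 for each, the smallest that 5 libraries against 5 can give. KIFC1 (-0.35), KIF18A (-0.37), KIF22 (-0.28) and KIF11 (-0.22) had smaller changes, KIF14 had 74.2 to 90.8 CPM, within the untreated range, and KIF4B had -0.0069. The order of the genes differed from that at 7 days, where KIF15 had the second largest fall: at 90 minutes it had 47.7, 50.5, 54.0, 51.3 and 49.6 CPM, between its lowest and highest untreated libraries. Both comparisons share the untreated libraries.

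The libraries at 7 days were set against those at 90 minutes to see what changed between the phases; the untreated libraries are not in this contrast but entered the filter and the shared estimate of spread. Of 39 members, 12 were called lower and 3 higher, against 12.6% and 16.7% of all genes. All 12 called lower were mitotic, and the 13th, KIF18A, had -0.30 ± 0.052, below the fold threshold. The 13 mitotic kinesins were all separated below, as were 29.9% of all genes. KIF15 changed most (-1.34 ± 0.066, adjusted p = 3.27e-13), followed by KIF22 (-1.11 ± 0.051) and KIF20A (-1.11 ± 0.050). KIF18B, which was lower already at 90 minutes, had -0.60 ± 0.073. Called higher were KIF6 (1.04 ± 0.13, adjusted p = 4.1e-07), KIF17 (0.90 ± 0.097, adjusted p = 6.61e-08) and KIF27 (0.65 ± 0.17, adjusted p = 0.00236), all without overlap, and 31.9% of all genes were separated above. Lane 4 held 2 libraries of each of these groups, and within it the median was -0.82 in mitotic kinesins, with 13 of 13 below 0, and 0.0011 in transport kinesins.

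In NFKBIA knockdown cells, which were not irradiated, 3 mitotic kinesins were lower and a few kinesins of low level changed in both directions. Of 39 members, 5 were called lower and 2 higher, against 7.54% and 5.17% of all genes. The median log2 fold change was -0.37 in mitotic kinesins, 0.052 in transport kinesins and 0.078 in other kinesins, against -0.0080 over all genes. Of the 13 mitotic kinesins 3 were called lower, 9 were lower at an adjusted p below 0.05 without the fold threshold (21.1% of all genes were), and 7 were separated below, as were 11.8% of all genes.

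The called mitotic members were KIF18B, KIFC1 and KIF22. KIF18B had 71.0, 72.7, 67.0, 69.7 and 64.5 CPM in knockdown libraries, under all untreated libraries, with a log2 fold change of -0.65 ± 0.072 (adjusted p = 3.78e-07). KIFC1 had 139, 133, 124, 124 and 129 CPM (-0.51 ± 0.043, adjusted p = 1.1e-08), and KIF22 had 89.7, 88.8, 83.2, 82.2 and 85.2 (-0.50 ± 0.050, adjusted p = 9.29e-08). Both lay under all untreated libraries but only just past the fold threshold, and without untreated libraries 4 and 5 their changes were -0.491 and -0.465. With lane as a factor they were -0.482 and -0.435, again short of the threshold. KIF11 (-0.44), KIF2C (-0.39), KIF15 (-0.37), KIF20A (-0.37), KIF23 (-0.34) and KIF4A (-0.32) were not called. KIF14 had 81.7 to 93.5 CPM and a change of -0.021, KIF18A had -0.11, KIF20B -0.16 and KIF4B -0.20. In the fit over all libraries without covariates, KIF18B was the only member called lower in all 3 comparisons with the shared untreated libraries. With lane as a factor KIF20B was beyond the fold threshold in all 3 too (-0.773 at 90 minutes, -1.32 at 7 days and -0.857 in the knockdown).

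KIF17 was lower in knockdown cells and higher at 7 days. Its knockdown libraries had 2.65, 2.88, 3.41, 2.79 and 2.48 CPM, all under the untreated minimum of 5.23, with a log2 fold change of -1.06 ± 0.11 (adjusted p = 1.5e-07). KIF26B, an atypical kinesin linked to non-canonical Wnt signalling, had 2.62, 2.64, 2.84, 3.19 and 3.37 CPM in knockdown libraries and 1.40, 1.77, 1.83, 1.32 and 1.48 in untreated ones. It rose without overlap (12.3% of all genes were separated above) by 0.89 ± 0.11 (adjusted p = 1.35e-06), from counts of 31 to 73 in untreated libraries, and with lane as a factor its change was 0.86 with an adjusted p of 0.102. KIF5A, the neuronal heavy chain of conventional kinesin, had 28.4, 30.0, 28.6, 29.2 and 29.4 CPM in knockdown libraries and 16.6, 17.5, 21.0, 13.8 and 34.2 in untreated ones. Untreated library 5 was above every knockdown library, so the groups overlapped; the log2 fold change was 0.51 ± 0.15 (adjusted p = 0.00861, exact permutation p = 0.0476), and with lane as a factor it was -0.21. KIF5A kept its call in 11 of 20 alternatives and lost it, among others, with DESeq2, with only the groups compared and without untreated library 1, 2 or 4. KIF19, a kinesin that sets the length of motile cilia, was called lower at -0.98 ± 0.34 (adjusted p = 0.0283, exact permutation p = 0.0238) from only 9 to 22 counts in untreated and 4 to 9 in knockdown libraries. Its CPM values were 0.327, 0.387, 0.550, 0.297 and 0.476 in untreated libraries and 0.147, 0.273, 0.120, 0.330 and 0.177 in knockdown libraries, which overlapped. KIF19 kept this call in 14 of 19 alternatives and lost it, among others, without untreated library 3 or knockdown library 1, 3 or 5.

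**Figure D5:**
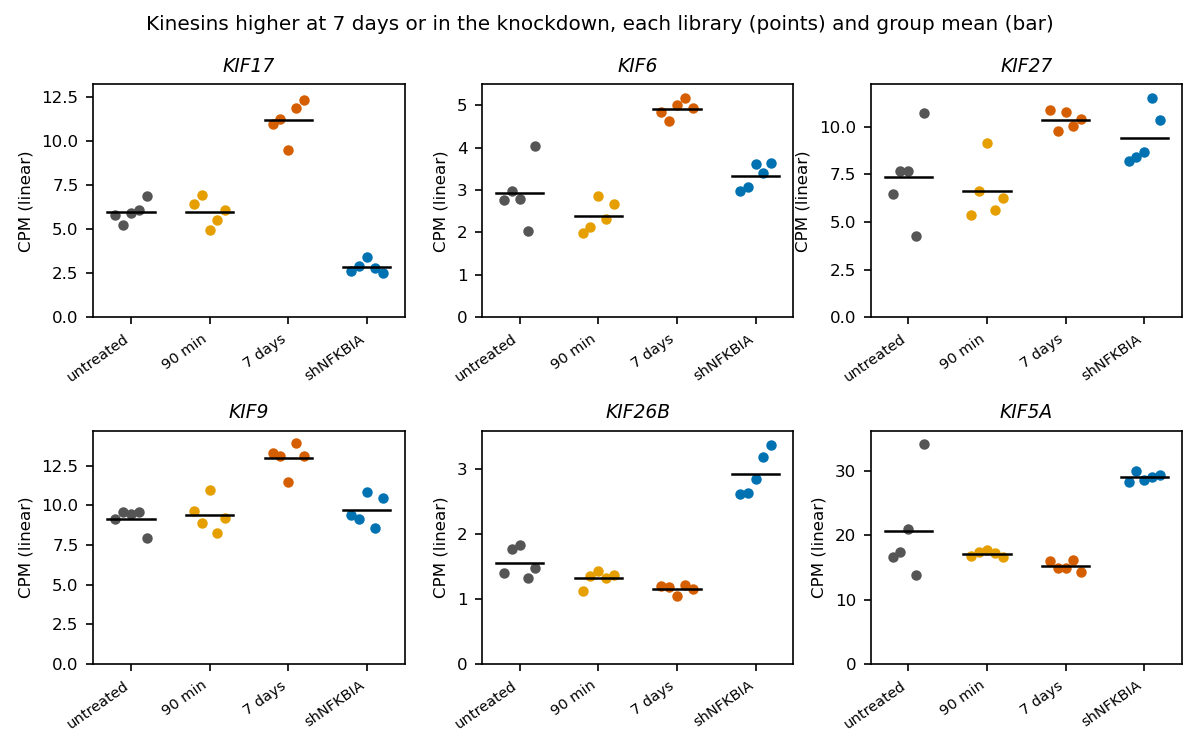
CPM in every library (points, by group) of the 6 kinesins that were called higher at 7 days or in knockdown cells against untreated cells, with group means as lines; n = 5 libraries per group. KIF17 lies at 9.46 to 12.3 CPM at 7 days and at 2.48 to 3.41 in knockdown cells, on opposite sides of its untreated range of 5.23 to 6.90, and untreated library 5 stands high for KIF5A at 34.2.

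The irradiated cells at 7 days were also compared with knockdown cells, in the same fit over all libraries. Of 39 members, 16 were called lower and 3 higher at 7 days, against 9.89% and 15.8% of all genes. All 13 mitotic kinesins were called lower and separated below (30.1% of all genes were separated below), from KIF20A (-1.25 ± 0.050, adjusted p = 1.26e-14) to KIF4B (-0.50 ± 0.10, adjusted p = 0.000229). KIF4B was at the fold threshold and kept this call in 16 of 19 alternatives: it was -0.493 with at least 10 counts in every library, -0.476 without library 3 at 7 days and -0.493 without knockdown library 4. KIF17 was 3.92-fold higher at 7 days than in knockdown cells, the largest difference among the kinesins in any comparison (1.97 ± 0.11, adjusted p = 1.46e-12). KIF6 (0.56 ± 0.12) and, at the threshold, KIF19 (0.83 ± 0.35, adjusted p = 0.0495) were higher too, though KIF19 kept its call in only 4 of 17 alternatives; of the 3, KIF17 and KIF6 were separated above (30.6% of all genes). Lower were KIF26B (-1.33 ± 0.11, adjusted p = 1.96e-09), KIF5A (-0.93 ± 0.15, adjusted p = 1.74e-05) and KIF21B, a neuronal motor that also pauses microtubule growth (-0.67 ± 0.21, adjusted p = 0.00998). KIF5A stood at 14.4 to 16.2 CPM at 7 days and at 28.4 to 30.0 in knockdown cells, apart by more than the spread of either group. With lane as a factor KIF20B (-0.467), KIF21B (adjusted p = 0.371) and KIF19 (adjusted p = 0.225) did not pass. In lane 5, which held 3 libraries at 7 days and 1 knockdown library, the mitotic median was -0.73, with 13 of 13 below 0.

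Most genes of proteins that work with the mitotic kinesins were lower at 7 days as well. Of 17 partner genes, 15 were called lower and 0 higher, with a median of -1.09, and all 17 were separated below, where 14.4% of all genes were called lower and 20.4% separated below; those not called were NUMA1 and HMMR. The largest falls were those of PLK1 (149 ± 27.6 to 50.2 ± 1.41 CPM, -1.57 ± 0.088), a mitotic kinase that KIF20A brings to the central spindle, NUSAP1 (207 ± 28.9 to 80.9 ± 2.32 CPM, -1.35 ± 0.067), a spindle microtubule binder, and CENPE (162 ± 52.3 to 65.9 ± 2.30 CPM, -1.30 ± 0.13), itself a kinetochore kinesin of a symbol that the family's rule does not match. At 90 minutes 3 and in knockdown cells 7 of the 17 were called lower, against 1.57% and 7.54% of all genes, with medians of -0.22 and -0.38. Another 18 genes were regulators known to act on CHR and CCAAT elements (the DREAM complex, FOXM1 and NF-Y), with p53 and its target CDKN1A. Of these, 6 were lower and 1 higher at 7 days, against 14.4% and 16.7% of all genes. FOXM1 stood at 402 ± 133 CPM in untreated cells and 136 ± 3.38 at 7 days (-1.56 ± 0.13). MYBL2 stood at 291 ± 33.5 and 118 ± 4.25 (-1.30 ± 0.067), and the riser was CDKN1A (1.86 ± 0.053). Their part in the kinesin levels was not tested.

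Partners of the transport kinesins and subunits of dynein, the opposing motor, showed no such common direction. Of 18 transport partners, 1 was higher and 1 lower at 7 days, against 16.7% and 14.4% of all genes, with a median of 0.037. FEZ1, a cargo adaptor of conventional kinesin, rose from 9.27 ± 1.39 to 18.8 ± 1.57 CPM (1.01 ± 0.081), and KLC3, a kinesin light chain, fell from 2.01 ± 0.295 to 1.13 ± 0.258 (-0.84 ± 0.18). Of 23 dynein and dynactin genes, 3 were higher and 2 lower, near the shares of all genes (16.7% and 14.4%), with a median of -0.085. DYNC1H1, the cytoplasmic dynein heavy chain, rose from 322 ± 67.3 to 557 ± 23.6 CPM (0.79 ± 0.10), NDE1, a dynein regulator at kinetochores and centrosomes, fell from 53.8 ± 11.6 to 31.6 ± 0.776 (-0.77 ± 0.093), and DYNLRB2, a dynein light chain, rose from 0.295 ± 0.0601 to 0.892 ± 0.307 (1.56 ± 0.30). Of the 5 tested markers of other cell types, KRT5, EPCAM and CDH1 were lower at 7 days, from untreated means of 0.457, 3.40 and 1.83 CPM. The 10 markers summed to 7.14 to 8.86 CPM in untreated libraries, 6.95 to 9.42 at 90 minutes, 6.04 to 7.09 at 7 days and 4.03 to 5.08 in knockdown cells. Their part in the kinesin results was not tested.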

How the data were processed

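Total RNA of 20 U2-OS samples was sequenced as stranded mRNA libraries. Per the labels, reads were handled with bcl2fastq, Trimmomatic and STAR (version 2.4.2a) on hg19; the counter, its annotation and its strand setting are not given in the sources used here. The deposited values are raw read counts per gene, which the authors did not normalize. The study calls the 5 libraries of a group biological replicates; whether they came from separate cultures is not said in the labels, and p-values measure the spread between these libraries. Members, classes and partner lists were chosen with earlier results of these data known.

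Genes passing filterByExpr (minimum count 10) were fitted over all 20 libraries with edgeR 4.0.16 (R 4.3.3), TMM normalization and robust quasi-likelihood tests without covariates, and p-values were adjusted over 14992 genes. Called genes had an adjusted p below 0.05 and a log2 fold change beyond 0.5. SE is the log2 fold change over the root of F. CPM used TMM library sizes; RPKM used the table's gene width. Exact two-sided permutation tests used log2 CPM with a prior count of 2. The code was tested on simulated data. No pair of libraries agreed within sampling noise. Count totals of 22535659 to 40390961 leave low genes such as KIF19 with the least precision. Named were all mitotic kinesins, other members called in any comparison, and of each partner list the called genes with the 3 largest changes at 7 days, with per-library values for the 10 largest called changes at 7 days and members called at 90 minutes or in the knockdown. KIF3C, KIF5B, KIF3B, KIF13A, KIF13B, KIFC2, KIFC3, KIF7, KIF2A, KIF26A, NUMA1 and HMMR, and the per-library values of KIF24, were chosen after their values were seen. Promoters came from RefSeq, and exon overlaps and shared 100-base stretches from GENCODE 29 transcripts. Alternatives were RLE, upper-quartile and library-size scaling, DESeq2 1.42.0, other filters and thresholds, only the groups compared, lane as a factor, a replicate block and each library left out.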

Additional observations from a re-analysis of the deposited data

Results flagged for a closer look

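For each tested kinesin and class measure in each group of 5 libraries, the gap between an extreme library and its nearest neighbour was set against the whole range (Dixon's 95% critical value), which flagged 13 of 172 groups; chance flags about 1 in 20. In untreated library 5, KIF3A, a kinesin-2 subunit, stood at 94.2 CPM against 58.6 to 64.7 in the other 4, KIFC3 at 58.7 against 105 to 122, and KIF9 at 7.94 against 9.15 to 9.60. In untreated library 4 all kinesins together took 0.3203% of reads against 0.3449 to 0.3513%. At 90 minutes, library 1 was low for KIF13A (48.4 CPM against 54.0 to 56.2) and KIF13B (35.8 against 41.6 to 43.9), library 5 was low for KIF16B (13.7 against 14.5 to 14.9), and the transport share of kinesin reads was 44.09% in library 4 against 43.3 to 43.49%. At 7 days, library 2 was high for KIFC1 (73.3 CPM against 68.99 to 69.9) and for mitotic reads per transport read (0.6307 against 0.5856 to 0.5973). In knockdown cells, library 4 was high for KIF18A (70.4 CPM against 63.0 to 65.0) and KIF3B (164 against 154 to 156), and library 1 for KIF3C (87.5 against 83.0 to 83.8). KIFC1 at 7 days is the only flagged value of a kinesin with a fall of more than 2-fold, and its highest library was still under its untreated minimum of 174 CPM.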

How the results depend on the processing

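With thresholds kept, of 247 recomputed 7-day values of the 13 mitotic kinesins, all but 1 passed in the same direction; the exception was KIF4B with lane as a factor. Of 1171 recomputed values of called members over all comparisons, also with thresholds kept, 1094 passed in the same direction, 76 no longer passed, and 1 turned: KIF5A in the knockdown, -0.212 with lane as a factor. The causes were not tested. Counts of called members in the comparisons with untreated cells changed as follows. At 90 minutes (2 lower, 0 higher) there was 1 lower, KIF18B without KIF20A, with library size alone and with only the groups compared, 5 lower and 1 higher with lane (13.6 and 11.9% of all genes), 10 lower and 1 higher without a fold threshold, and 0 lower beyond a log2 fold change of 1. At 7 days (14 lower, 4 higher) 17 were lower and 5 higher with lane (19.5 and 21.8% of all genes), among them 4 transport kinesins newly lower; 2 were higher with RLE scaling, DESeq2, no filter, only the groups compared, and without untreated libraries 4 and 5 (an alternative chosen after seeing the data); 10 were higher without a fold threshold, and 7 lower and 0 higher beyond 1. In the knockdown (5 lower, 2 higher) 6 were lower and 2 higher with lane (14 and 13.3% of all genes), where KIF22, KIFC1, KIF19, KIF5A and KIF26B lost their calls and KIF3C, KIF20B, KIF15, KIF24, KIFC2 and KIFC3 gained one; 1 was higher with RLE, DESeq2, no filter, at least 10 counts in every library, and only the groups compared; 3 were lower with upper-quartile scaling, library size alone, and without untreated libraries 4 and 5; 14 were lower and 5 higher without a fold threshold, and 1 lower and 0 higher beyond 1. For 7 days against 90 minutes (12 lower, 3 higher) 5 were higher with upper-quartile scaling and with lane, 9 higher without a fold threshold, and 5 lower and 1 higher beyond 1. For 7 days against knockdown (16 lower, 3 higher) 7 were higher without a fold threshold, and 3 lower and 1 higher beyond 1. Over all 14992 genes, 1530 were lower and 1652 higher without a fold threshold at 90 minutes, and 25 and 65 beyond 1. These counts were 4686, 4932, 680 and 1146 at 7 days, and 3161, 2918, 307 and 217 in the knockdown. They were 4328, 4794, 507 and 1119 for 7 days against 90 minutes, and 4149, 4457, 415 and 1116 for 7 days against knockdown. With lane as a factor, mitotic medians were -0.294 at 90 minutes, -1.32 at 7 days and -0.734 for 7 days against knockdown, while transport medians were -0.213, -0.212 and -0.212 at 90 minutes, at 7 days and in the knockdown. The mitotic median was -0.31 in the knockdown with library size alone and -1.12 at 7 days without untreated libraries 4 and 5. Per length, the mitotic shares were 62.1, 57.04, 41.79 and 55.63% for untreated, 90-minute, 7-day and knockdown cells. With each library left out in turn, 2 to 4 members were higher and 14 to 17 lower at 7 days, 1 to 2 lower at 90 minutes, 1 to 3 higher and 2 to 5 lower in the knockdown; mitotic medians ran from -1.16 to -1.01 at 7 days and from -0.85 to -0.806 for 7 days against 90 minutes, and transport medians for the latter from -0.0286 to 0.0446. Leaving out any untreated or 7-day library, library 3 at 90 minutes, or knockdown library 1, 3, 4 or 5 changed at least 1 call against untreated cells; without untreated 2, KIF21B (0.586) and KIF13B (0.52) gained a call in the knockdown and KIF5A lost its call.

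Replicate numbers did not pair the libraries: same-numbered libraries correlated in their deviations at -0.254 to 0.123 over 30 pairs, and 3 of 20 libraries were closest to their own number. With the replicate number as a block, 14 members were lower and 4 higher at 7 days, and the only changed call was KIF19 in 7 days against knockdown (0.827, adjusted p = 0.075). Lane and group overlap so far that the untreated comparisons cannot be told apart from lane except through untreated library 5. Depth limits KIF19 most, with 4 to 22 counts a library.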
